A study of Homo sapiens with 6 samples.

Results

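The 9 genes described here set the supply of deoxynucleoside triphosphates (dNTPs), the building blocks of DNA. They are RRM1, RRM2 and RRM2B, which encode the subunits of ribonucleotide reductase, TYMS, TK1, DCTD and DUT, which serve the thymidylate branch, DCK, a salvage kinase, and SAMHD1, which breaks dNTPs down. A probe was taken when the gene name of its array spot equalled one of these symbols, which gave 12 probes for the 9 genes, out of 50599 probes and 34423 gene names on the array. The rule uses names and no measured value, although the genes were listed with earlier results of these data known.

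The RNA came from subcutaneous xenografts of BxPC-3, an epithelial line from a human pancreatic adenocarcinoma, grown in female nude mice (BALB/c nu/nu, 8 to 10 weeks old). Treatment started at a tumor volume of 150 mm3 and lasted 21 days. The 3 DFX-treated tumors came from mice given deferasirox (DFX), an oral iron chelator, at 200 mg/kg by gavage on alternate days, and the 3 control tumors from mice given only the vehicle, saline. Each tumor was hybridized to its own one-color array of human 60-mer probes, to ask which transcripts differ between the groups. A single cell line was used, whole tumors were taken, and the host keeps its own fibroblasts, vessels and most leukocytes, so mouse RNA can be present.

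Ribonucleotide reductase removes an oxygen from ribonucleoside diphosphates and is the entry point to all dNTPs. Its large subunit RRM1 holds the catalytic site, and its small subunit, either RRM2 or RRM2B, holds an iron center that carries the tyrosyl radical needed for each reaction cycle. RRM2 is made for S phase and degraded afterwards through cyclin F, while RRM2B is a p53 target that also serves resting cells and mitochondrial DNA. Because the small subunit depends on iron, iron chelators are known to block the enzyme. The arrays measured transcript levels and not the iron content or the activity of the enzyme.

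None of the 9 genes passed the test between DFX-treated and control tumors, and for 8 of them the groups overlapped with the brightest probe. A probe was called when limma gave an unadjusted p under 0.05, and 0 of the 12 probes were, against 8.41% of all 31807 tested probes (3.46% called higher and 4.95% lower after DFX). Their unadjusted p-values ran from 0.196 to 0.866, and their Benjamini-Hochberg adjusted p-values over all tested probes from 0.718 to 0.972 in limma. After adjustment limma called 0 probes on the whole array, where 2675 passed unadjusted, and the lowest adjusted p was 0.0675. With each gene represented by its brightest tested probe, 6 genes were higher and 3 lower in the DFX-treated tumors. The log2 fold changes ran from -0.36 for DCK to 0.19 for TK1, with a median of 0.057, where the median of all 22718 tested genes was -0.01. The median size of a change was 0.12 for the 9 genes and 0.15 for all genes.

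These values set limits on how far the transcripts can have moved. The 95% confidence interval of the change lay within 2-fold in either direction for 8 of the 9 genes and within 1.5-fold for 6 of them. The exceptions to the wider limit were DCK and, among the second probes, the dimmer RRM2B probe. The intervals measure the spread between these tumors only. In whole tumors, fewer cells of a type and less RNA per cell cannot be told apart.

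**Figure D1:**
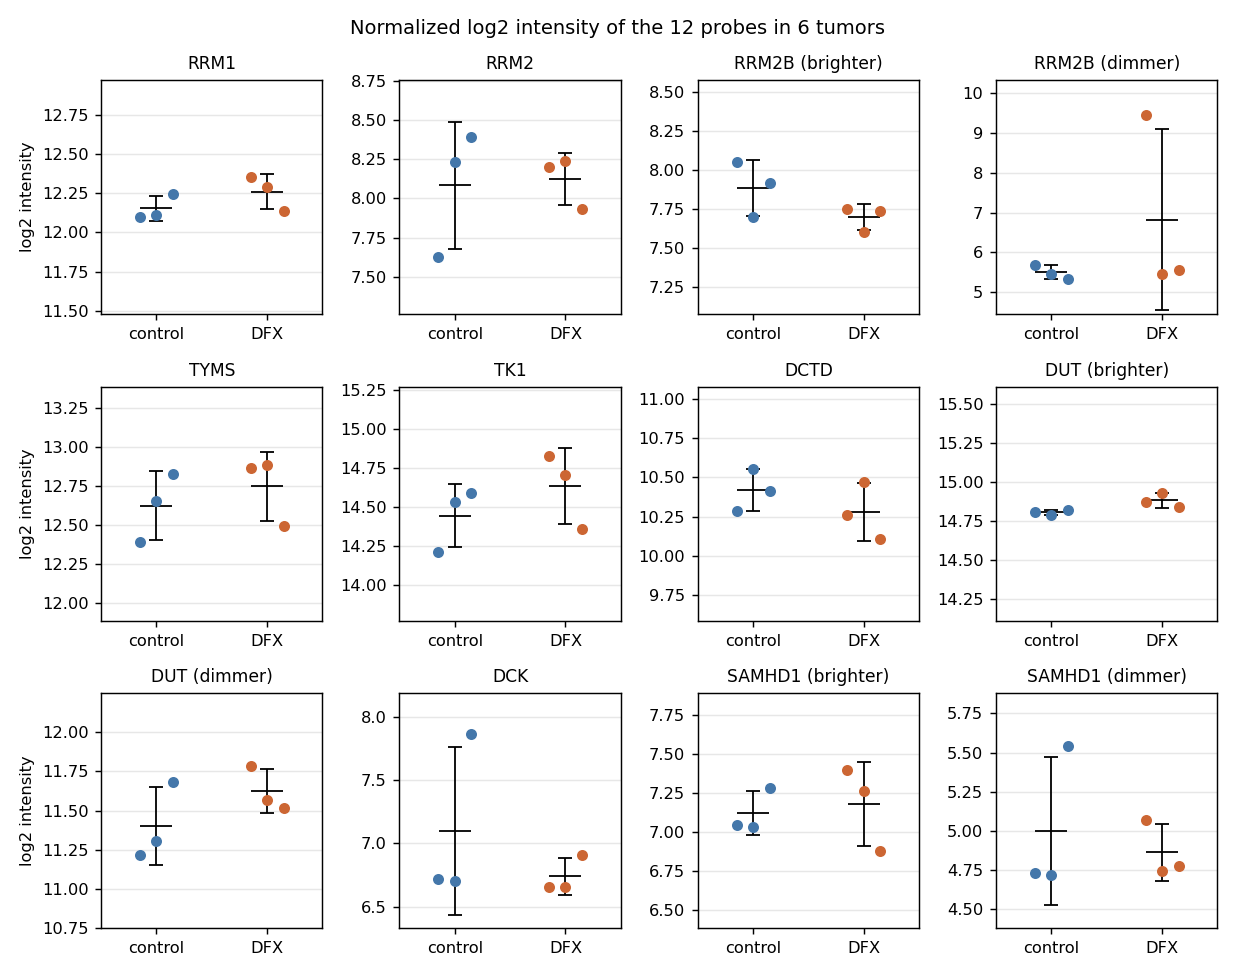
Normalized log2 intensity of each of the 12 probes (vertical axes, each panel on its own scale) in the 3 control tumors (blue) and the 3 DFX-treated tumors (orange), replicates 1 to 3 from left to right in each group, with the group mean and SD as black bars. The groups overlap in every panel except that of the brighter DUT probe, and DFX 1 stands alone in the panel of the dimmer RRM2B probe.

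RRM1, the large subunit, was the steadiest of the reductase transcripts. Its probe at chr11:4159947-4160006 (hg19, plus strand) had normalized log2 intensities of 12.10, 12.11 and 12.25 in control tumors 1, 2 and 3, and of 12.35, 12.29 and 12.14 in DFX-treated tumors 1, 2 and 3. DFX 1 and DFX 2 lay just above all controls and DFX 3 lay among the controls. The log2 fold change was 0.11 (SE 0.11, 95% interval -0.17 to 0.38, limma adjusted p = 0.805), so a rise or fall of RRM1 by more than 1.30-fold falls outside this interval.

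RRM2, the iron-bearing small subunit of S phase, varied far more between control tumors than between the groups. Its probe at chr2:10270487-10270546 (hg19, plus strand) had log2 intensities of 7.62, 8.23 and 8.39 in the controls and of 8.20, 8.24 and 7.93 after DFX. Control 1 was the lowest and control 3 the highest of all 6 tumors, so the DFX-treated tumors fell wholly within the range of the controls. The group means were 8.08 ± 0.41 (SD, n = 3) in control tumors and 8.12 ± 0.17 (SD, n = 3) in DFX-treated tumors. The fold change was 1.03, with a 95% interval of 0.702 to 1.51 (limma adjusted p = 0.972). This value depended on control 1, since without it the log2 fold change was -0.19, and it was -0.018 without DFX 2.

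RRM2B, the p53-inducible small subunit, had probes at chr8:103217175-103217234 and chr8:103219914-103219973 (hg19, minus strand), and these disagreed. The brighter, at the first position, read 8.05, 7.70 and 7.91 in the controls and 7.75, 7.60 and 7.74 after DFX. DFX 2 was the lowest of all tumors, and control 2 lay among the DFX-treated tumors. The log2 fold change was -0.19 (SE 0.13, 95% interval -0.51 to 0.13, limma adjusted p = 0.718), the smallest p of the 12 probes but not past the threshold.

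The dimmer RRM2B probe read 5.69, 5.47 and 5.34 in the controls and 9.44, 5.45 and 5.56 after DFX. Its log2 fold change of 1.32 (SE 1.07, limma adjusted p = 0.749) came from DFX 1 alone, and without that tumor the groups differed by 0.0068. The brighter probe of the same gene was not raised in DFX 1. The pixels of the raised spot were also uneven. Their SD was 58.0% of the spot mean in DFX 1, against 16.5% to 23.4% for the same spot on the other arrays, and 99.98% of 5366 spots of similar brightness (within 1.5-fold) on the DFX 1 array had a lower value. Of the 24 spots around it, 3 were more than 4-fold brighter in DFX 1 than on every other array, while none was on any of the other 5 arrays. The scanner had not flagged the spot as an outlier, so it stayed in the fit. The part of these spot measures in the raised value was not tested.

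**Figure D2:**
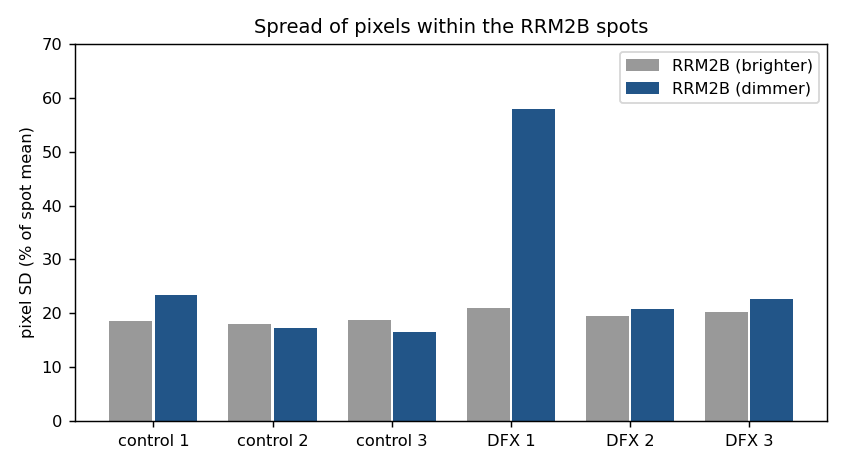
Spread of pixel brightness within the RRM2B spots, as the pixel SD in percent of the spot mean (vertical axis), in each of the 6 tumors for the brighter probe (grey) and the dimmer probe (blue). The dimmer probe reached 58.0% in DFX 1 and 16.5% to 23.4% in the other tumors.

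The balance of the alternative small subunits was compared within each tumor, which removes any scaling between arrays. RRM2B minus RRM2, taken as a difference of log2 intensities of the brighter RRM2B probe and the RRM2 probe, was 0.43, -0.54 and -0.48 in the controls and -0.45, -0.64 and -0.19 after DFX. These differences are between probes of unlike response and serve only for comparison between tumors. Control 1 stood above the other 5 tumors. The DFX-treated tumors were lower by a mean of -0.23, which an exact two-sided permutation test did not separate from the spread (p = 0.7, where 3 against 3 tumors cannot go below 0.1). Without control 1 the difference was 0.083, with the opposite sign.

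TYMS, thymidylate synthase, makes dTMP from dUMP. Its probe at chr18:673276-673335 (hg19, plus strand) read 12.39, 12.66 and 12.83 in the controls and 12.87, 12.88 and 12.49 after DFX. DFX 1 and DFX 2 were the highest of all tumors by a small margin, and DFX 3 lay below all but control 1. The log2 fold change was 0.12 (SE 0.17, 95% interval -0.30 to 0.54, limma adjusted p = 0.857).

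TK1, the cytosolic thymidine kinase that rises in cycling cells, had the largest positive change among the brightest probes of the 9 genes. Its probe at chr17:76170193-76170252 (hg19, minus strand) read 14.21, 14.53 and 14.59 in the controls and 14.83, 14.71 and 14.36 after DFX. The order of the tumors was close to that of TYMS, with control 1 lowest and DFX 3 next. The log2 fold change was 0.19 (SE 0.17, 95% interval -0.24 to 0.61, limma adjusted p = 0.777).

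DCTD, dCMP deaminase, feeds dUMP to TYMS. Its probe at chr4:183812036-183812095 (hg19, minus strand) had group means of 10.42 ± 0.14 (SD, n = 3) in control tumors and 10.28 ± 0.18 (SD, n = 3) in DFX-treated tumors, with DFX 3 lowest and control 2 highest. Its log2 fold change was -0.14 (SE 0.14, 95% interval -0.48 to 0.20, limma adjusted p = 0.796).

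DUT, dUTPase, removes dUTP and so keeps uracil out of DNA. Its probes are printed here because the array annotation places them at chr15:48633763-48634258 and chr15:48633737-48634231 (hg19, plus strand), which overlap, so they are not independent measures of the gene. Each position spans more bases than the 60 of the probe. The stretch that the probes share is in capitals, and both read 5′ to 3′:
A_23_P88484: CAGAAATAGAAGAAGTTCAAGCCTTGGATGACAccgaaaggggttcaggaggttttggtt
A_24_P160874: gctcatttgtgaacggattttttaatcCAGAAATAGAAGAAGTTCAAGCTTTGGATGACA
The shared stretch has 33 positions, of which 32 are identical. The only difference is T50C, counted from 1 at the 5′ end of A_24_P160874, with the base of A_24_P160874 first and that of A_23_P88484 second.

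The brighter DUT probe, A_23_P88484, was the least variable of the 12 and the only probe of them whose groups did not overlap. It read 14.81, 14.79 and 14.82 in the controls and 14.87, 14.93 and 14.84 after DFX. The groups failed to overlap for 15.5% of all tested probes, so 1 of 12 was below the background. The change was 5.42% upward (log2 fold change 0.08, SE 0.09, 95% interval -0.15 to 0.31, limma adjusted p = 0.834). The dimmer probe, A_24_P160874, read 11.21, 11.31 and 11.68 in the controls and 11.79, 11.57 and 11.52 after DFX, with overlap. Its log2 fold change was 0.22 (SE 0.16, limma adjusted p = 0.728). Without control 3, its highest control, it was 0.36 and passed the unadjusted threshold in limma.

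DCK, deoxycytidine kinase, starts the salvage of deoxycytidine and activates gemcitabine, a standard drug for pancreatic cancer. Its probe at chr4:71895933-71895992 (hg19, plus strand) read 6.72, 6.71 and 7.87 in the controls and 6.65, 6.66 and 6.91 after DFX. Control 3 stood far above all others, which were close together. The log2 fold change of -0.36 (SE 0.33, 95% interval -1.17 to 0.46, limma adjusted p = 0.778) was the largest fall among the brightest probes, and it became 0.028 without control 3.

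SAMHD1 cleaves dNTPs and was represented by probes at chr20:35520759-35520818 and chr20:35533804-35533863 (hg19, minus strand). The brighter, at the first position, read 7.05, 7.03 and 7.28 in the controls and 7.40, 7.26 and 6.88 after DFX. The DFX-treated tumors held both the highest and the lowest value. The log2 fold change was 0.06 (SE 0.17, 95% interval -0.36 to 0.47, limma adjusted p = 0.939), and it was -0.053 without DFX 1. The dimmer probe was the only one of the 12 not well above background on every array, being at that level on 5 arrays and not in DFX 2. Its log2 fold change was -0.13 (SE 0.25, limma adjusted p = 0.895), with control 3 highest, and it was 0.14 without control 3.

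**Figure D3:**
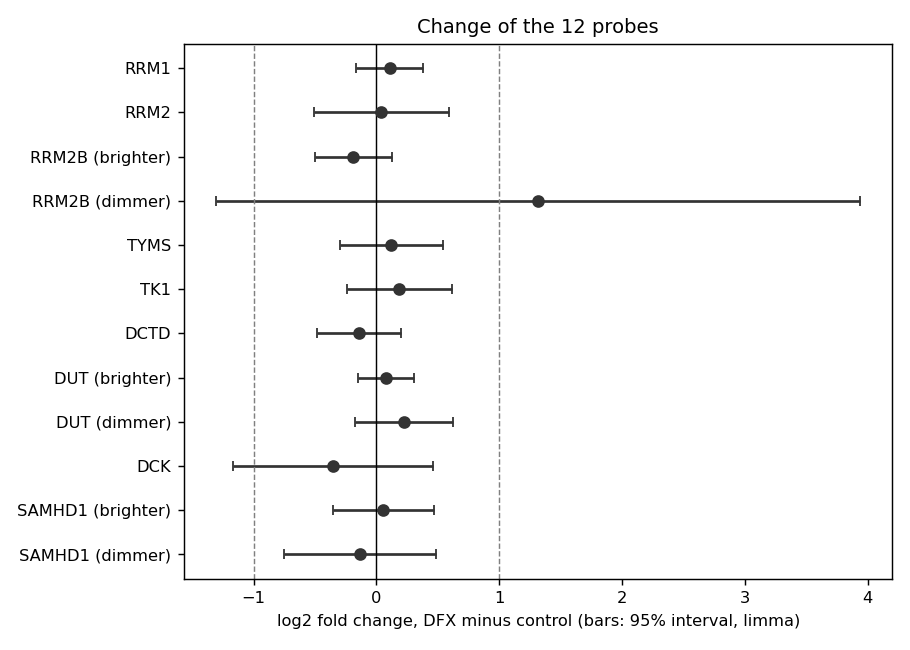
Log2 fold change of each of the 12 probes, DFX-treated minus control tumors (horizontal axis), with 95% confidence intervals from limma. The solid line marks no change and the dashed lines a 2-fold change, and every interval crosses 0.

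The same tumors were low or high for several of the 9 genes. Control 1 was the lowest control for 5 of the 9 genes and control 3 the highest control for 7, while DFX 3 was the lowest of the DFX-treated tumors for 7. In 8 of the 9 genes, the range among the 3 controls was wider than the change between the groups. The share of all genes with the same order of tumors or the same wide range was not counted. These counts therefore do not set the 9 genes apart from the array. Arrays of different groups shared a column of the slide in 2 places, and the difference was taken within each. Between control 1 and DFX 2, RRM2 differed by 0.62, TYMS by 0.49 and TK1 by 0.49 on the log2 scale, each higher in DFX 2. Between control 3 and DFX 3, the same genes differed by -0.46, -0.34 and -0.23, each lower in DFX 3. For 9 of the 12 probes the sign was opposite in the columns. Each such difference is between a single control and a single DFX-treated tumor, so it cannot part the column from the tumors. The probes are not independent of each other, and the share of all probes with opposite signs was not counted.

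S-phase genes were examined next, as RRM2, TYMS and TK1 are among the genes that cycling cells induce. Of 36 tested genes of DNA replication and proliferation, among them the MCM helicase subunits, PCNA and MKI67, 0 were called in limma, against 7.98% of all genes, and the median log2 fold change was 0.05. Over these genes, the median deviation from the control mean was -0.23, -0.03 and 0.22 in the controls and 0.17, 0.04 and -0.06 after DFX. Control 1 was the lowest tumor and DFX 3 the next lowest for the S-phase genes, and the same held for RRM2, TYMS and TK1. It did not hold for the rest of the 9 genes, and the share of all genes with this order was not counted. MKI67, the marker of dividing cells, had a log2 fold change of 0.21 (SE 0.18, limma adjusted p = 0.768). Of the 3 MKI67 probes, 1 passed the unadjusted threshold, and the brightest, used here, did not. PCNA, the replication clamp, had a log2 fold change of 0.05 (SE 0.13, limma adjusted p = 0.927), and this turned to -0.05 when arrays were scaled to their medians.

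**Figure D4:**
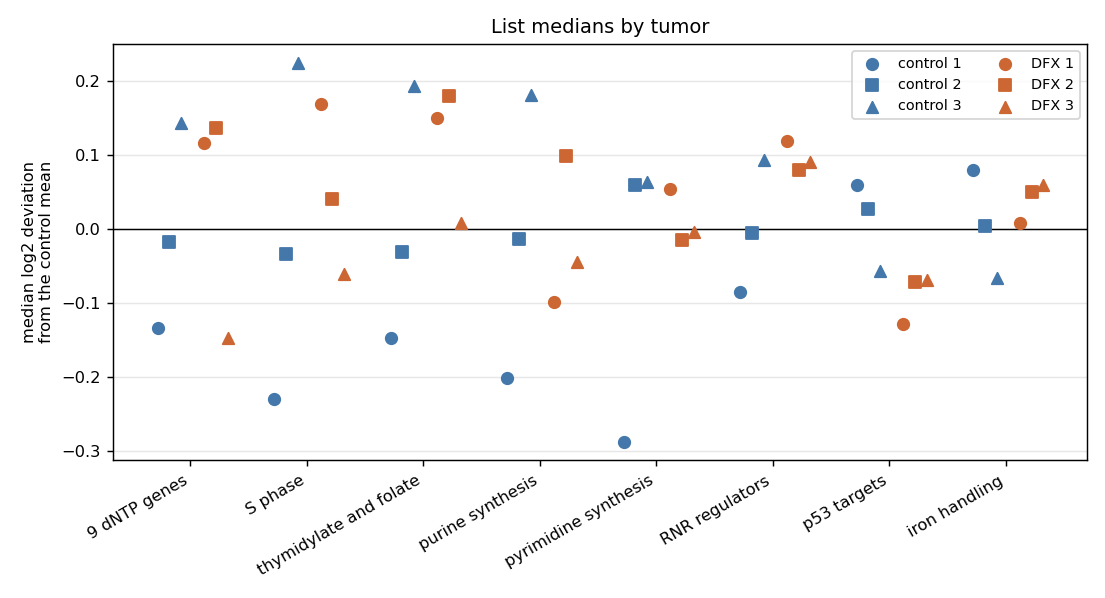
Median log2 deviation from the control mean over the genes of 8 lists (vertical axis) in each control tumor (blue) and DFX-treated tumor (orange), with a circle, square and triangle for replicates 1, 2 and 3. For the S-phase genes, control tumors ran from -0.23 to 0.22 and enclosed the DFX-treated tumors.

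The regulators of ribonucleotide reductase held 3 called genes among 18 tested, all higher in the DFX-treated tumors, where 3.68% of all genes were called higher. E2F1, a transcription factor that drives S-phase genes, read 9.38, 9.53 and 9.51 in the controls and between 9.74 (DFX 3) and 10.12 (DFX 2) after DFX. E2F2, its close relative, read 10.94, 10.95 and 10.93 in the controls and 11.53, 11.53 and 11.34 after DFX. Both were higher in each DFX-treated tumor than in any control, by 0.48 (SE 0.13, unadjusted p = 0.0117 in limma) for E2F1 and 0.52 (SE 0.10, unadjusted p = 0.00236 in limma) for E2F2. GLRX, glutaredoxin, which can pass electrons to the reductase, was higher by 0.48 (SE 0.14, unadjusted p = 0.0137 in limma), also without overlap. None of these passed after adjustment, with adjusted p-values of 0.514, 0.513 and 0.522 in limma. With the slide column as a block all 3 kept their direction and missed the threshold, with log2 fold changes of 0.48 for E2F1, 0.49 for E2F2 and 0.48 for GLRX. Control 2 and DFX 1 were alone in their columns, so that fit compares only control 1 with DFX 2 and control 3 with DFX 3. An effect of the column and the loss of those tumors cannot be told apart. With arrays scaled to their medians E2F1 (0.37) and GLRX (0.36) missed the threshold as well. The other 15 were not called, among them NFYA and NFYB, subunits of the factor NF-Y, and CHEK1, ATR and ATM. The brightest probe of ATR, a checkpoint kinase, was 0.16 higher (SE 0.10, limma adjusted p = 0.674) without overlap between the groups, and 1 of its 2 probes passed the unadjusted threshold. ATM, a related kinase, had a log2 fold change of -0.28 (limma adjusted p = 0.624), also without overlap. CCNF, cyclin F, which marks RRM2 for destruction, had a log2 fold change of 0.06 (SE 0.39, limma adjusted p = 0.976) and was lowest in control 1 and DFX 3, at 5.12 and 5.25.

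The promoters of the genes were searched for sequences known to bind these factors, in RefSeq windows of 250 bases before a transcript start (GRCh38.p14). Windows were found for 8 of the 9 genes, 14 in all. The letters CCAAT, the core of an NF-Y site, were counted on both strands and occurred in 4 genes, namely RRM1, RRM2, TK1 and SAMHD1. Counted by windows, some of which overlap, 5 of the 14 held CCAAT, and of all 35116 windows in the table, 32% held it at least once and 2.93% held 3 or more, as RRM2 did. The RRM2 sites are shown because they recur at short spacing in near-identical surroundings, and the TK1 sites for comparison, each in 30 bases on the gene's own strand with CCAAT or its reverse complement ATTGG in capitals:
RRM2 chr2:10122604-10122633: ggcaaggcgcagCCAATgggaagggtcgga
RRM2 chr2:10122634-10122663: ggcatggcacagCCAATgggaagggccggg
RRM2 chr2:10122661-10122690: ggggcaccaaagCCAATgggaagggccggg
TK1 chr17:78187112-78187141: ggccgggcgctgATTGGccccatggcggcg
TK1 chr17:78187081-78187110: ggccggctcgtgATTGGccagcacgccgtg
The capitals start 123, 93 and 66 bases before the RRM2 start used, and 77 and 46 bases before that of TK1. RRM2 lies on the plus strand and TK1 on the minus strand. E2F-type letters (TTTCCCGC, TTTGGCGC, TTTCGCGC or TTTGCCGC, both strands) were found in 2 of the 14 windows, those of TYMS and of 1 DUT start, and in 2.79% of all windows. These matches describe the sequence only.

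Of the p53 targets, the group to which RRM2B belongs, 1 of 15 was called, and it was lower, where 4.29% of all genes were called lower. In all, 13 of the 15 were lower and 2 higher, with a median log2 fold change of -0.10. TP53INP1, a p53-induced nuclear protein, read 10.06, 9.76 and 9.61 in the controls and 9.40, 9.41 and 9.42 after DFX, lower by -0.40 (SE 0.14, limma adjusted p = 0.570). It passed with 1 of its 2 probes. CDKN1A, the p21 cell cycle inhibitor, had a log2 fold change of -0.19 (SE 0.20, limma adjusted p = 0.804). MDM2, the ubiquitin ligase of p53, had -0.09 (SE 0.14, limma adjusted p = 0.866) with its brightest probe, while 1 of its 4 probes was called.

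The neighboring pathways of nucleotide supply changed no more often than the array as a whole. Over thymidylate and folate, purine synthesis, pyrimidine synthesis, nucleoside salvage, nucleotide kinases and dNTP breakdown, 3 of 73 tested genes were called in limma, which is 4.11%, where 7.98% of all genes were, and the median log2 fold change was 0.02. NME3, a nucleoside diphosphate kinase, was higher by 0.33 (SE 0.13, limma adjusted p = 0.582). UCKL1, a uridine kinase-like protein, was lower at 7.58, 7.55 and 7.38 in the DFX-treated tumors than at 7.95, 8.30 and 7.88 in the controls, with a log2 fold change of -0.54 (SE 0.15, limma adjusted p = 0.514). Of the 13 purine synthesis genes, the 5 pyrimidine synthesis genes and the 10 breakdown genes, 0 were called.

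Iron handling genes were included because DFX binds iron, and 2 of 15 were called in opposite directions, where 3.68% of all genes were called higher and 4.29% lower. TFRC, the transferrin receptor that imports iron, read 11.94, 12.06 and 12.29 in the controls and 11.59, 11.70 and 11.78 after DFX. It was lower in every DFX-treated tumor, with a log2 fold change of -0.41 (SE 0.13, limma adjusted p = 0.553). HMOX1, heme oxygenase, which frees iron from heme, was higher by 0.36 (SE 0.11, limma adjusted p = 0.546). Together with the lists above, 9 of 157 genes were called (5.73%), 6 higher and 3 lower, where 7.98% of all genes were. The groups did not overlap for 20 of the 157 genes (12.7%), where 15.4% of all genes had no overlap. The count was 4 without DFX 1 and 4 without DFX 2, and in both cases TFRC, HMOX1, NME3 and TP53INP1 were among the genes that missed the threshold. TFRC also missed it without control 3, NME3 without control 2, control 3 or DFX 3, and TP53INP1 without control 1, control 2 or DFX 3. The count was 4 with median scaling, 2 with the slide column as a block, and 17 with array quality weights. With the column block, control 2 and DFX 1 do not enter the difference.

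**Figure D5:**
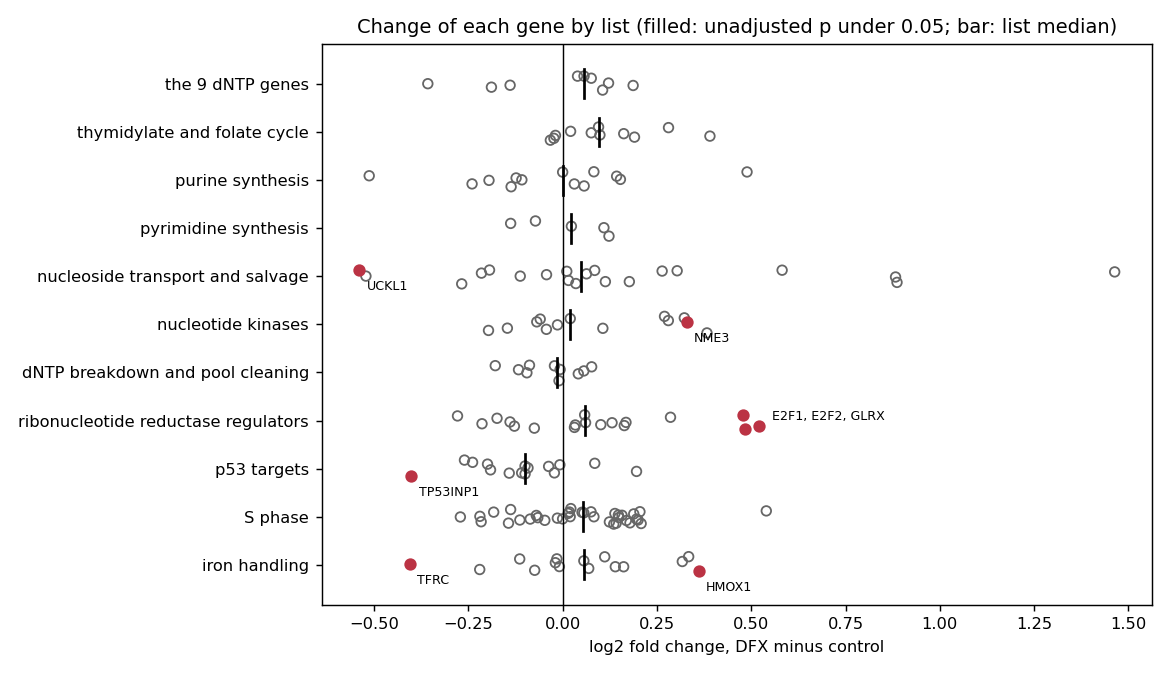
Log2 fold change, DFX-treated minus control tumors, of the brightest tested probe of each gene (horizontal axis) in the 9 dNTP supply genes and 10 related lists. Filled points passed an unadjusted p under 0.05 in limma and are named, open points did not, 1 called gene is not drawn, and the vertical bars mark list medians, which ran from -0.10 for p53 targets to 0.10 for thymidylate and folate.

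Markers of the tumor cells and of other cells were measured beside these genes. The probes are human and the host cells are mouse, so the signal of the other markers cannot be assigned to host or tumor cells. All 10 epithelial markers, such as EPCAM and KRT19, were well above background on every array. Their summed intensity was 681352 to 712677 in the control tumors and 725286 to 733736 in the DFX-treated tumors. This sum is weighted toward the brightest markers, KRT19 (log2 fold change 0.02) and KRT7 (-0.17), neither of them called. Quantile normalization gave KRT19 the same log2 value, 18.44, in control 2, control 3 and DFX 1. Of the 10 markers, 9 were higher and 1, KRT7, was lower. Those called higher were 3 of the 10, EPCAM, KRT8 and KRT18, where 3.68% of all genes were. Of the red blood cell markers 5 of 8 were tested, and their sum was 6739 to 8023 in control and 3122 to 3287 in DFX-treated tumors, with HBA2 and HBD called lower, where 4.29% of all genes were. By direction, 3 of the 5 were lower and 2 higher. The fibroblast markers tested (8 of 10) summed to 14251 to 23571 in control and 13173 to 16218 in DFX-treated tumors, with LUM called higher and DCN lower, so that 2 of 8 were called where 7.98% of all genes were. Leukocyte markers (7 of 10 tested, 0 called) and endothelial markers (6 of 8 tested, KDR well above background on no array) had overlapping sums. Among the 6 endothelial markers 3 were higher and 3 lower. Only PECAM1 of them was called, and it was higher, where 3.68% of all genes were called higher. The part of these differences in the values of E2F1, E2F2 and the other called genes was not tested.

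All arrays lay on 1 slide. The controls were in row 1 and the tumors given DFX in row 2, so row and treatment cannot be told apart. Probes well above background made up 50.3% to 56.5% of each array, the fewest in DFX 2. Across the tested probes, log2 intensities correlated at 0.983 to 0.990 among controls, at 0.984 to 0.987 among the tumors given DFX, and at 0.980 to 0.988 for pairs from different groups.

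The genes with the most similar profile over the 6 tumors were found for each reductase subunit, by the root mean square difference of log2 intensities centered on their mean, among 17805 genes well above background on all arrays. Nearest to RRM1 were ANP32E (0.026), NIPA2 (0.026) and the transcript XLOC_012507 (0.028). Nearest to RRM2 were TEAD4 (0.043), CD3EAP (0.044) and the transcript THC2702109 (0.053). Nearest to RRM2B were ATP8B5P (0.028), ZNF175 (0.038) and CD164 (0.041). RRM1, RRM2 and RRM2B themselves deviated from their means by 0.096, 0.25 and 0.15 on the same scale. With 6 tumors and this many genes, such likeness is a description only.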

How the data were processed

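Total RNA of 6 tumors, 1 per array, was labeled with Cy3. The authors deposited scanner files of linear spot intensities (mean, background and background-subtracted processed signal), pixel SDs, flags and a p-value of each spot against background, not normalized between arrays. The submitters' processing notes name Feature Extraction 9.5.1.1 and the file headers 10.7.1.1. The deposited table holds the authors' normalized intensities, whose median distance from quantile-normalized linear processed signals was 0.185%, and was an alternative. Groups and replicate numbers came from the sample titles.

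Following the study's methods, log2 values of the processed signal were quantile-normalized across arrays on 58717 non-control spots, and a probe was kept (31807 of 50599) if its p-value against background was below 0.05 on each of the 6 arrays. Flagged outlier spots (1398 values) were left out after normalization, spots of a probe were averaged, and 4 tested probes then lacked a value. No array spot was saturated. The test was lmFit with eBayes, two-sided (limma 3.58.1, R 4.3.3, prior degrees of freedom 2.04), and p-values of all tested probes were adjusted together by Benjamini-Hochberg. The methods name no test for the arrays, only the Kruskal-Wallis H test for animal work, which was an alternative. A probe was called at an unadjusted p under 0.05, the threshold of the study. The procedure was tested on simulated data. The tumors are separate samples by their labels, and p-values measure the spread between them. The number of arrays limits the precision.

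Each gene was represented by its brightest tested probe, and every probe of the 9 genes was reported. From the 10 related lists, the genes named are up to 4 called genes by smallest p, then TFRC, CDKN1A, MDM2, E2F1, CCNF, PCNA and MKI67, and for the reductase subunits the 3 most similar genes. The called markers, EPCAM, KRT19, KRT7 and KDR, and the uncalled regulators NFYA, NFYB, CHEK1, ATR and ATM were picked with their values known. Of the called genes of the related lists, 1 is counted but not reported here. The 9 genes and the lists were chosen with earlier results of these data known. Gene names are those of the array, all 9 with a RefSeq symbol, and probe positions are on hg19. Promoter windows are from RefSeq on GRCh38.p14, and no position was converted. The alternatives covered normalization, background correction, signal column, dim probes, outlier flags, the authors' values, the test, array weights, blocks, the probe that stands for a gene, and leaving out each tumor.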

Additional observations from a re-analysis of the deposited data

How the results depend on the processing

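The count of called probes was within 1.5 times of 2675 except with the Kruskal-Wallis H test (4927), array quality weights (4213) and the slide column as a block (1418), and ran from 1889 to 2717 with a tumor left out. The column block compares only control 1 with DFX 2 and control 3 with DFX 3. Control 2 and DFX 1 were alone in their columns, so its counts also reflect the loss of those tumors. Of the 12 probes of the 9 genes, 0 were called except 1 with the Kruskal-Wallis H test (DUT A_23_P88484), 1 with array weights and 1 without control 3 (both DUT A_24_P160874), so leaving out a tumor gave 0 to 1. The related genes called (9) became 4 after median scaling, 20 with the Kruskal-Wallis H test, 17 with array weights and 2 with the slide column as a block, and 4 to 13 with a tumor left out (4 without DFX 1 or DFX 2, 13 without control 3). The Kruskal-Wallis calls are the probes and genes whose groups do not overlap, where its p is 0.0495, so they repeat those counts. An exact rank test of 3 against 3 tumors cannot go below p = 0.1. E2F2 stayed past the threshold in 19 of 20 alternatives. The median change of the 9 genes ran from -0.02 (median scaling) to 0.14 (without control 3).

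Median scaling moved the median of all probes to -0.10, and the changes of RRM1 (-0.0059), RRM2 (-0.0604), DUT A_23_P88484 (-0.0227) and PCNA (-0.0532) turned negative but stayed above that median. Of all calls, 58.8% were lower, or 42.6% after 75th percentile scaling and 71.8% after scaling to the median. RRM2B minus RRM2 turned to 0.52 when the probes of each gene were averaged, which takes in the spot raised in DFX 1, and ran from -0.40 to 0.083 with a tumor left out. Signs also turned with array weights for SAMHD1 A_24_P267592 (0.10) and MDM2 (0.0149), and for PCNA when its probes were averaged (-0.0424). With the slide column as a block they turned for RRM2B A_33_P3323384 (-0.0105), SAMHD1 A_33_P3406281 (-0.10), CDKN1A (0.0171) and PCNA (-0.0459). DFX 1, which held the raised RRM2B spot, and control 2 do not enter the difference with that block. With a tumor left out, RRM2 ran from -0.19 to 0.195, DCK from -0.55 to 0.0277, SAMHD1 A_33_P3406281 from -0.0529 to 0.21 and A_24_P267592 from -0.28 to 0.14, CCNF from -0.29 to 0.37, PCNA from -0.0061 to 0.15 and MDM2 from -0.17 to 0.00014. None of these turned values passed the threshold, and other causes were not tested.

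The replicate numbers do not pair the tumors by the labels, and deviations of same-numbered tumors correlated at 0.027, 0.027 and 0.016. With the replicate block, limma called 2419 probes, 0 of the 12 probes and 7 of the related genes, with a median change of 0.057. It gives no value for RRM2B minus RRM2, nor do the Kruskal-Wallis H test, the model without moderation, array weights or the slide column. Dim probes are limited by background, as the SAMHD1 probe A_24_P267592 shows.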
